A study of Mus musculus with 4 samples.

Results

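The transcription factors described here are 8 regulators of oocyte and germ cell differentiation, chosen by gene symbol as *Figla*, *Sohlh1*, *Sohlh2*, *Lhx8*, *Nobox*, *Taf4b*, *Msx1* and *Msx2*. All 8 were found among the 40999 listed features. Gonads of wild-type C57BL/6J mouse embryos were taken on 4 successive days, E11.5 to E14.5, and XX and XY gonads were mixed, so no value belongs to a single sex. Each day was 1 pool of at least 6 male and 6 female gonads and 1 library, with no replicate, and no genotype or treatment differed between days. The E11.5 pool held the whole genital ridge with its mesonephros, and the later pools held the dissected gonad alone.

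These factors act at separate steps of germ cell life. The homeobox proteins MSX1 and MSX2 are effectors of bone morphogenetic protein (BMP) signalling and take part in the entry of fetal ovarian germ cells into meiosis, and both are also made by many embryonic mesenchymes. TAF4B is a gonad-enriched paralog of TAF4A, a subunit of the general transcription factor TFIID. SOHLH1 and SOHLH2 are a pair of basic helix-loop-helix (bHLH) proteins of differentiating germ cells, FIGLA is a bHLH activator of zona pellucida genes, and LHX8 and NOBOX are homeobox proteins of the oocyte. The last 3 are best known from the formation and growth of follicles around birth, after the stages sampled here.

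Counts summed to between 25593453 and 31752562 per library. Nuclear ribosomal RNA took between 1.03% and 9.06% of them at E11.5 to E13.5 and 40.7% at E14.5, which leaves fewer counts for other genes there. Levels between libraries are therefore given as CPM (the count scaled to a fixed library size) after TMM scaling (trimmed mean of M-values, which aligns the bulk of the genes), and levels between genes as the deposited TPM, which divides by exon length. A floor of 3 counts was between 0.07575 and 0.159 TMM-scaled CPM. Ratios carry an exact Clopper-Pearson 95% interval, levels an exact Poisson one, and both cover counting error only, not the spread between pools. A gene was called past 2-fold when its log2 ratio was at least 1 in size and its interval left out 0, which compares these libraries and not the stages at large. The germ cell genes *Ddx4* and *Dazl* were detected in all 4 libraries, with *Dazl* at 53, 4555, 8230 and 3061 counts, so germ cells were present in each pool. In such pools, fewer germ cells and less RNA per germ cell cannot be told apart.

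The members fell apart by level into an expressed set (*Sohlh2*, *Taf4b*, *Msx1* and *Msx2*) and a set near the floor (*Figla*, *Sohlh1*, *Lhx8* and *Nobox*). The expressed set held between 95.7% and 98.9% of the summed TPM of the 8 genes in a library. The set near the floor had 10, 15, 30 and 28 counts in all from the E11.5 to the E14.5 library. A minimum of 10 counts in at least 1 library was met by 6 of the 8, and *Lhx8* and *Nobox* stayed below it.

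To show what lies before the start sites of the bHLH partners and of *Figla*, the 250 bases upstream of each RefSeq start (GRCm38.p6, the assembly of mm10) are printed 5′ to 3′ on the gene's strand. Capitals mark E-boxes, the bHLH-type motif CANNTG, which reads the same on both strands. The intervals are chr2:25847249-25847498 on the minus strand for *Sohlh1*, chr3:55181794-55182043 on the plus strand for *Sohlh2* and chr6:86016941-86017190 on the plus strand for *Figla*.
Sohlh1: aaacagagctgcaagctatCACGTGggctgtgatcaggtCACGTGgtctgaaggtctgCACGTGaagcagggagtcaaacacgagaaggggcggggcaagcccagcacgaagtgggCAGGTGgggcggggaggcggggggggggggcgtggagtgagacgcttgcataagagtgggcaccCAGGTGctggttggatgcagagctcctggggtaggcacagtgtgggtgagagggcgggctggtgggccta
Sohlh2: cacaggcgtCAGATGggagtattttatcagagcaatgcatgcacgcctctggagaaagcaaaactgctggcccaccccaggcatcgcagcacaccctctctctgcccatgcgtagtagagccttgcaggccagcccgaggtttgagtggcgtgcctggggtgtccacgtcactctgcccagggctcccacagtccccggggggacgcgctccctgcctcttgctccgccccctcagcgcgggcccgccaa
Figla: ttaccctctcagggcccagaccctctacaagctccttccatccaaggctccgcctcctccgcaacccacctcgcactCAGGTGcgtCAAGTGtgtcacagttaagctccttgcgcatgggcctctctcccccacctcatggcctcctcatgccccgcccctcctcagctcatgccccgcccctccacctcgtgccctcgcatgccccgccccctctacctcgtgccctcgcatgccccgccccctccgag

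The *Sohlh1* window held 5 E-boxes, of which 3 read CACGTG, starting 231, 211 and 192 bases before the start site, and 2 read CAGGTG. *Sohlh2* held 1 E-box and *Figla* 2, none of them CACGTG. Over 32851 promoter windows of the same length, 66.2% held at least 1 E-box and 12.2% held 3 or more, while CACGTG was in 6.02% and occurred 3 or more times in 0.0609%. The windows held 11 CpG dinucleotides for *Sohlh1*, 14 for *Sohlh2* and 14 for *Figla*. Over all windows the median was 6 and the quartiles were 2 and 16, so these values lie between the quartiles. The partner genes thus differ in these letters, and a match is a description of the sequence only.

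For the homeobox paralogs, capitals mark TAATTA, a homeodomain-type motif that reads the same on both strands. The windows are chr5:37824586-37824835 for *Msx1* and chr13:53472781-53473030 for *Msx2*, both on the minus strand.
Msx1: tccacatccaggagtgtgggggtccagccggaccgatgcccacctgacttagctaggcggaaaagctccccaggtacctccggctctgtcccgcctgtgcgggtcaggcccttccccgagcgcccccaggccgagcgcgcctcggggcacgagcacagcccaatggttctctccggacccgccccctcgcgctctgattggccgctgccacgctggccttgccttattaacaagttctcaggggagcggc
Msx2: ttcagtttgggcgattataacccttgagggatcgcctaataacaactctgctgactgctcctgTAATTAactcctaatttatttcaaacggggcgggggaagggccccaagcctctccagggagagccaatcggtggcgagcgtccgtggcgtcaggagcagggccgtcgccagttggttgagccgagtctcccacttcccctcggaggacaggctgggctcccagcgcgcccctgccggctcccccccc

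*Msx2* held 1 TAATTA, 187 bases before its start site, and *Msx1* held none, while 4.84% of all windows held it. The related TAATTG, searched on both strands, was in neither window and in 7.17% of all windows. CpG dinucleotides numbered 20 for *Msx1* and 16 for *Msx2*. Among the other members, *Nobox* held 2 E-boxes and *Lhx8* none. The *Nobox* window precedes the RefSeq start at 43309554 and lies within the deposited model, which runs to 43317234.

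*Sohlh2*, the bHLH partner with the higher level, had the largest change of any member with at least 10 counts in both libraries. It lies on the plus strand of chromosome 3, from 55182044 to 55209957 of mm10, with 11 exon blocks and 2348 exonic bases. In stage order its counts were 44, 460, 865 and 244. TMM-scaled, these were 1.28, 14.7, 21.8 and 12.9 CPM, so the level was lowest with the mesonephros still attached and highest at E13.5. *Sohlh2* rose 11.4-fold from E11.5 to E12.5, a log2 ratio of 3.51 (3.07–3.995). From E12.5 to E13.5 the log2 ratio was 0.57 (0.41–0.74), which leaves out 0 without reaching 2-fold. From E13.5 to E14.5 it was −0.75 (−0.96 to −0.55), so that the E14.5 level was 0.593 times that of E13.5. The E14.5 and E12.5 levels were close, with a log2 ratio of −0.18 (−0.41 to 0.05).

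Its partner *Sohlh1* lies on the minus strand of chromosome 2, from 25842995 to 25847248, with 9 exon blocks and 1953 exonic bases. It had 6, 7, 16 and 12 counts, or 0.138, 0.215, 0.426 and 0.219 TPM. The intervals of these TPM values, from 0.0508–0.301 at E11.5 to 0.113–0.382 at E14.5, all overlap. On the TMM scale *Sohlh1* went from 0.175 CPM at E11.5 to 0.637 at E14.5. Only the step from E12.5 to E14.5 was past 2-fold, with a log2 ratio of 1.49 (0.05–3.10) from 7 to 12 counts. It was not called by total counts or by TPM. By TPM, *Sohlh2* stood 6.10, 54.7, 45.0 and 16.9 times above *Sohlh1* in stage order. The partners were therefore far apart in level in each library.

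*Taf4b* was the second member that rose between E11.5 and E12.5. It lies on the plus strand of chromosome 18, from 14783205 to 14900359, with 15 exon blocks and 5189 exonic bases. Its counts were 298, 874, 1231 and 618, which is 8.70, 27.9, 31.1 and 32.8 TMM-scaled CPM. The level rose 3.20-fold from E11.5 to E12.5, a log2 ratio of 1.68 (1.49–1.88), and then lay within a narrow range. Log2 ratios after that were 0.16 (0.03–0.28) to E13.5 and 0.08 (−0.06 to 0.22) to E14.5. In TPM, *Taf4b* read 2.59, 10.1, 12.3 and 4.24, so the deposited values drop at E14.5 where the TMM-scaled ones do not.

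The homeobox paralogs had no change past 2-fold between E11.5 and E12.5. *Msx1*, on the minus strand of chromosome 5 from 37820491 to 37824585, has 2 exon blocks and 1931 exonic bases. It had 486, 522, 663 and 179 counts, or 14.2, 16.7, 16.7 and 9.50 TMM-scaled CPM. Its level at E12.5 and E13.5 was equal within counting error, with a log2 ratio of 0.01 (−0.16 to 0.17). At E14.5 it was 0.568 times the E13.5 level, a log2 ratio of −0.82 (−1.06 to −0.58), which did not reach 2-fold. An antisense gene, *Msx1os*, shares 1137 exonic bases with *Msx1* on the other strand and had at most 2 counts in a library.

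*Msx2*, on the minus strand of chromosome 13 from 53466881 to 53472780, also has 2 exon blocks, with 2162 exonic bases. Counts were 90, 105, 287 and 83, or 2.63, 3.35, 7.25 and 4.404 TMM-scaled CPM, with the highest level at E13.5. *Msx2* rose 2.16-fold from E12.5 to E13.5, a log2 ratio of 1.11 (0.79–1.45), the step at which *Msx1* stayed level. From E13.5 to E14.5 its log2 ratio was −0.72 (−1.09 to −0.36), close to that of *Msx1*. By TPM, *Msx1* stood 6.05, 5.57, 2.59 and 2.41 times above *Msx2* in stage order. The distance between the paralogs thus narrowed at E13.5.

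*Figla*, on the plus strand of chromosome 6, was at 0, 3, 1 and 11 counts. The 0 counts at E11.5 allow up to 0.0941 TPM. Between E13.5 and E14.5 its TMM-scaled level went from 0.02525 to 0.584 CPM, a log2 ratio of 4.32 (1.75–9.96). Against the 3 counts at E12.5 the log2 ratio was 2.55 (0.69–5.09). Both passed the 2-fold rule on the TMM scale, but by total counts and by TPM only the first did. *Figla* met the count minimum through the E14.5 library alone, so it could be called only where that library is the higher one. Its deposited model runs from 86010457 to 86020996, with 6 exon blocks and 1436 exonic bases. GENCODE starts the gene at 86016171 and RefSeq at 86017191, so the deposited model includes upstream exons.

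*Lhx8*, on the minus strand of chromosome 3 from 154306288 to 154330560, had 0, 3, 9 and 4 counts. *Nobox*, on the minus strand of chromosome 6 from 43303674 to 43317234, had 4, 2, 4 and 1. The highest TPM was 0.211 (0.0964–0.4001) for *Lhx8* and 0.0894 (0.0244–0.229) for *Nobox*, both at E13.5. Every ratio that could be formed for these genes had an interval that includes 0. A change of either gene was not detectable at this depth.

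**Figure D1:**
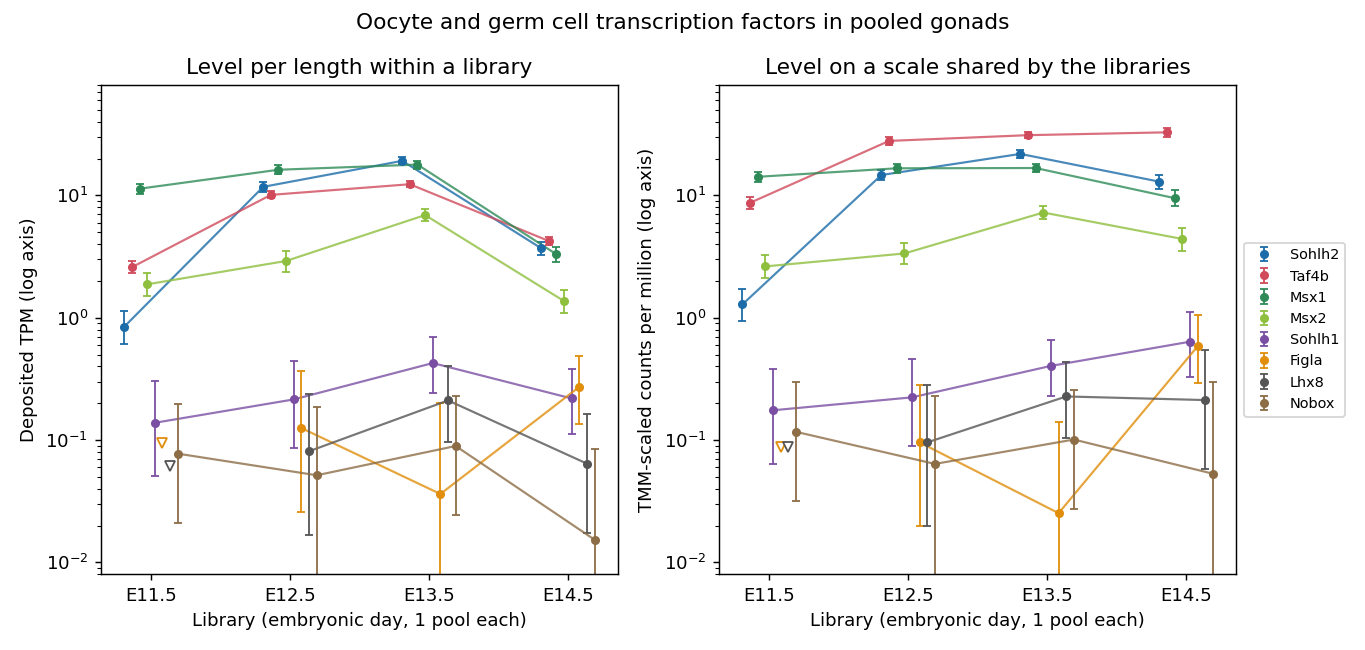
Levels of the 8 members in the 4 libraries, as deposited TPM (left) and as TMM-scaled CPM (right), both on log axes, with exact Poisson 95% intervals as bars and open triangles for the floor of 3 counts where the count was 0. *Sohlh2* climbs from 1.28 to 14.7 TMM-scaled CPM between E11.5 and E12.5, and *Figla*, *Sohlh1*, *Lhx8* and *Nobox* stay below 1 in every library.

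The order of the members by TPM changed between libraries. At E11.5 *Msx1* led with 11.3 TPM (10.3–12.4), followed by *Taf4b* at 2.59 (2.30–2.90) and *Msx2* at 1.88 (1.51–2.31), whose intervals overlap, and then *Sohlh2* at 0.844 (0.613–1.13). At E12.5 *Msx1* led with 16.2 (14.8–17.7), and the intervals of *Sohlh2* at 11.75 (10.7–12.87) and *Taf4b* at 10.1 (9.44–10.79) overlapped narrowly. An overlap of intervals does not show that levels are equal. At E13.5 *Sohlh2* at 19.2 (17.9–20.5) and *Msx1* at 17.9 (16.5–19.3) overlapped at the top, above *Taf4b* at 12.3 and *Msx2* at 6.91. At E14.5 *Taf4b* at 4.24 (3.91–4.59), *Sohlh2* at 3.70 (3.25–4.19) and *Msx1* at 3.30 (2.83–3.82) each overlapped the next. *Sohlh2* thus moved from the fourth place to the top within 2 days. Its TPM was above 39.6% of protein-coding genes at E11.5 and above 74.2% at E13.5. *Msx1* was above 60.8% to 72.6% of them in all 4 libraries, and *Nobox* never above more than 25.4%. Neighbours among the 4 lowest members overlapped in every library.

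Between E11.5 and E12.5, 2 of the 6 members that met the minimum were past 2-fold, *Sohlh2* and *Taf4b*, both higher, where 8.07% of all 20226 genes tested were higher, 8.22% lower and 16.3% past 2-fold in either direction. Between E12.5 and E13.5 only *Msx2* was past 2-fold, against 2.56% of all genes higher, 1.49% lower and 4.04% in either direction. Between E13.5 and E14.5 only *Figla* was, against 5.86% higher, 1.53% lower and 7.39% in either direction. *Figla* met the count minimum through the E14.5 library alone, so it could only be called higher there. From E12.5 to E14.5, which leaves out the pool with mesonephros, *Figla* and *Sohlh1* were called, both higher, against 8.06% higher, 2.53% lower and 10.6% in either direction. Neither of these calls was kept by total counts or by TPM. Apart from *Figla* and *Sohlh1*, both near the floor, no member was past 2-fold between E12.5 and E14.5 on the TMM scale. No member was past 2-fold lower in any of the 4 comparisons on the TMM scale. The comparisons share libraries and are not independent of one another.

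**Figure D2:**
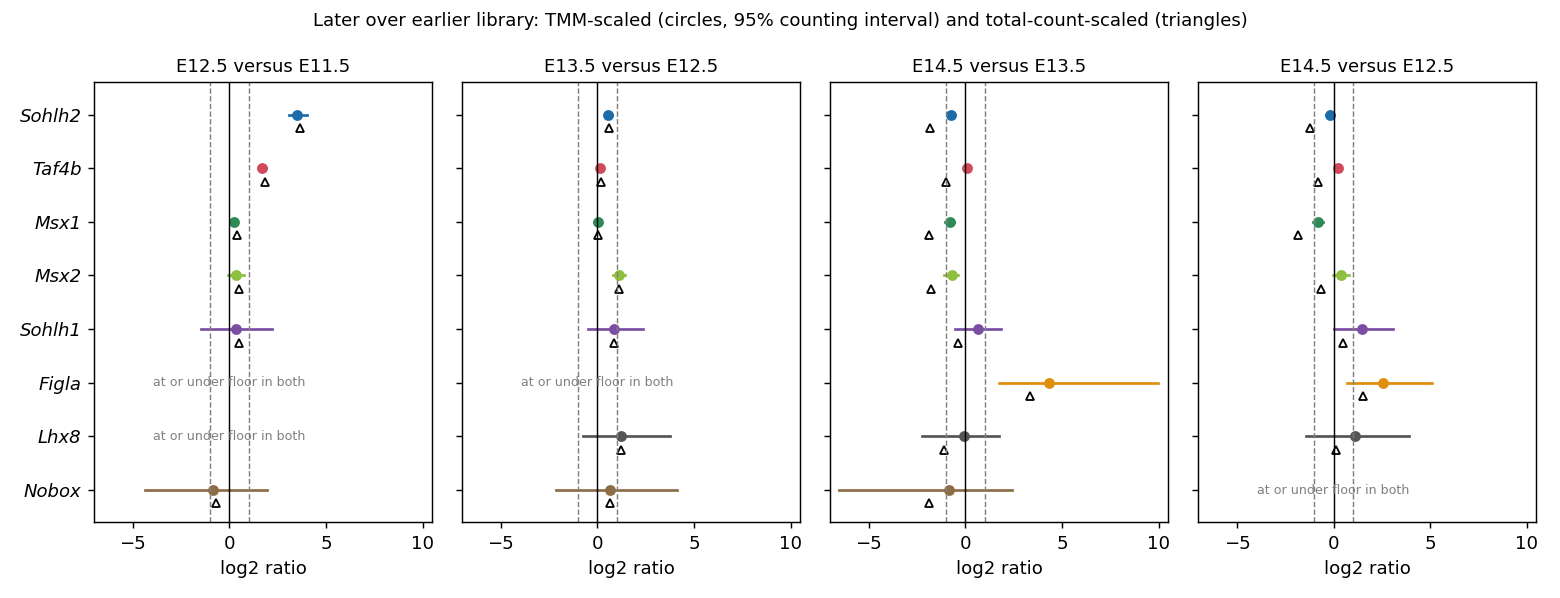
Log2 ratio of the later to the earlier library for each member in 4 comparisons, TMM-scaled (filled circles with 95% counting intervals) and scaled by total counts (open triangles), with dashed lines at 2-fold. The scales lie close together up to E13.5 and separate in the comparisons with E14.5, where *Taf4b* is at 0.08 on the TMM scale and −0.98 by total counts.

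Values at E14.5 depend on the scaling. Total counts in place of TMM moved the median of all genes by −1.06 between E13.5 and E14.5, and the deposited TPM moved it by −1.62. By total counts 4 members were then past 2-fold, *Figla* higher and *Sohlh2*, *Msx1* and *Msx2* lower. Of the 20226 genes tested, 316 were higher and 11417 lower on that scale. By TPM *Taf4b* was lower as well, with 162 of all genes higher and 17084 lower. Most genes were thus lower on both scales, not the members alone. *Figla* was called higher on all 3 scales between E13.5 and E14.5, each time from the same 1 and 11 counts. It met the count minimum through the E14.5 library alone, so no lower call was possible. The calls of *Figla* and *Sohlh1* from E12.5 to E14.5 were lost by total counts and by TPM. With total counts the shift was 0.16 for E12.5 and 0.03 for E13.5, and the calls of *Sohlh2*, *Taf4b* and *Msx2* at those steps did not depend on it.

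Most genes that mark germ cells rose in the same step as *Sohlh2* and *Taf4b*. Of 12 such genes, 10 were past 2-fold higher and none lower between E11.5 and E12.5, where 8.07% and 8.22% of all genes were. Their median log2 ratio was 2.52, against −0.00 over all genes tested. *Dazl*, an RNA-binding protein of germ cells, had a log2 ratio of 6.55 (6.16–6.97), and *Ddx4*, an RNA helicase of the germ line, one of 4.28. *Kit*, a receptor also made by other cells, was at 0.64 and not past 2-fold, nor was *Nanos3* at −0.50. In the same step 8 genes of the mesonephros summed to 142 TMM-scaled CPM at E11.5 and 26.5 at E12.5, and 6 of them fell, with *Pax2* at −4.54 and *Six2* at −6.50. All 8 still had counts in every library. Stage and dissection changed together in this step, so their parts in the rise of *Sohlh2* and *Taf4b* cannot be told apart.

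Set against the mean log2 level of the 12 germ cell genes, *Taf4b* stood 1.355 above it at E11.5 and between 0.18 and 0.255 above it at E12.5 to E14.5. The differences for *Sohlh2* were −1.40, −0.70, −0.33 and −1.09 in stage order. Its rise at E12.5 was therefore larger than the mean rise of the germ cell genes, which went from 1.77 to 4.58. It lay within their spread. *Dazl* at 6.55, *Mael* at 5.78 and *Ddx4* at 4.28 rose more than *Sohlh2* at 3.51, and the other genes of the list less. For *Msx1* the difference went from 2.06 to −0.52 at E12.5 and −1.53 at E14.5. For *Msx2* it went from −0.37 to −2.83 at E12.5. *Msx1* thus went from above the germ cell mean to below it, and *Msx2* was below it in all 4 libraries. Neither was itself past 2-fold at E12.5.

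**Figure D3:**
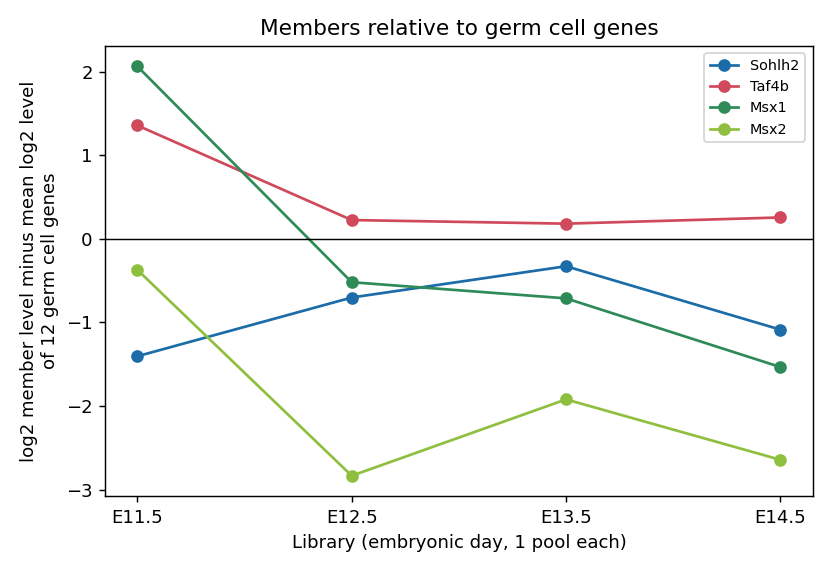
Log2 TMM-scaled level of each expressed member minus the mean log2 level of 12 germ cell genes, for the 4 libraries with 1 pool each. *Taf4b* stays between 0.18 and 0.255 from E12.5 on, *Sohlh2* peaks at −0.33 at E13.5, and *Msx1* drops from 2.06 at E11.5 to −0.52 at E12.5.

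Genes known to act downstream of FIGLA, NOBOX, LHX8 or SOHLH1 in growing oocytes, or to mark such oocytes, were mostly near the floor. Of 18 oocyte genes, 7 reached 10 counts in a library. *Zp1*, *Zp2* and *Zp3*, which encode the coat of the egg and include targets of FIGLA, had at most 4, 1 and 3 counts in any library. *Gdf9*, an oocyte growth factor, had 15, 21, 17 and 13 counts, and *Bmp15*, its relative, had at most 8. *Oas1d* and *Rfpl4* had 0 counts in all 4 libraries, which allows up to 0.159 TMM-scaled CPM in the least sensitive one. No log2 ratio of a zona pellucida gene or of *Gdf9* had an interval that left out 0.

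Of the 7, 3 members of this oocyte list rose between E11.5 and E12.5, where 8.07% of all genes did. Only the E11.5 pool held the mesonephros, and its part in these rises was not tested. *Khdc3*, of the subcortical maternal complex, went from 1 to 38 counts, with a log2 ratio of 5.20 (2.81–10.7). *Zar1*, an RNA-binding protein of the oocyte, was at 2.39 (1.53–3.39), from 13 to 63 counts. *Ooep*, of the same complex as *Khdc3*, was at 1.501 (0.98–2.05), from 42 to 109. *Tle6*, another part of that complex and the most abundant of the list, was at 0.997 (0.80–1.19), from 334 to 610 counts, and just missed the rule. The median log2 ratio of the 7 tested genes was 1.03, −0.27 and 0.07 in the 3 steps. *Nlrp5*, a maternal-effect gene, was past 2-fold at E13.5, from 2 to 12 counts, but met the count minimum through the E13.5 library alone. None of the 7 was past 2-fold at E14.5 against E13.5 on the TMM scale. By total counts 3 were lower, as were 11417 of the 20226 genes tested.

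Among TFIID subunit genes, *Taf4b* and *Taf7l* were past 2-fold in at least 1 step. The 17 genes listed beside *Taf4b* all met the minimum. They include *Tbpl1*, which encodes a relative of the TATA-binding protein rather than a standard TFIID subunit. Of the 17, 16 were not past 2-fold in any of the 3 steps between neighbouring stages on the TMM scale. Over all genes tested, 16.3%, 4.04% and 7.39% were past 2-fold in those steps. By total counts 13 of the 17 were lower at E14.5 against E13.5, as were 11417 of the 20226 genes tested. *Taf4a*, the ubiquitous paralog of *Taf4b*, had 5138, 5707, 5925 and 2715 counts and log2 ratios of 0.28, −0.28 and −0.05. By TPM it stood at 52.3, 77.4, 69.7 and 21.9, above *Taf4b* in each library. *Taf7l*, a germ cell paralog of *Taf7*, had 105, 24, 135 and 359 counts, and so fell at E12.5 and rose at each step after that. Its log2 ratios were −2.00 (−2.71 to −1.35), 2.15 (1.52–2.85) and 2.48 (2.19–2.78). The median of the 17 genes was 0.01, −0.04 and −0.03 in that order.

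Of the partners and inhibitors of bHLH factors, 1 was past 2-fold in a step between neighbouring stages on the TMM scale. *Tcf3*, which encodes the E-protein partner of FIGLA, had log2 ratios of −0.23, −0.18 and −0.04, and its relatives *Tcf4* and *Tcf12* stayed within −0.43 and 0.20. The *Id* genes encode inhibitors of E-proteins and respond to BMP signals. Of all 7 genes, only *Id1* was called, lower at E14.5 than at E13.5, where 1.53% of all genes were lower. Its log2 ratio was −1.23 (−1.38 to −1.09), from 2337 to 473 counts. *Id2* at −0.68 and *Id3* at −0.66 did not reach 2-fold at that step. By total counts all 7 were lower there, as were 11417 of the 20226 genes tested. Other oocyte regulators, namely *Foxo3*, *Stat3*, *Sub1* and *Dynll1*, had log2 ratios between −0.37 and 0.50, and *Tbpl2*, an oocyte form of the TATA-binding protein, had 0 counts throughout.

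The BMP pathway lies upstream of *Msx1* and *Msx2*. Of its 15 genes, 1 was higher and 5 were lower past 2-fold between E11.5 and E12.5, against 8.07% and 8.22% of all genes tested. None was called at E13.5, where 4.04% of all genes were, and 1 was lower at E14.5, where 1.53% were. *Bmp2*, a ligand, had 479, 1138, 1899 and 378 counts. It rose by 1.38 (1.22–1.53) on the log2 scale at E12.5, had a log2 ratio of 0.40 (0.29–0.51) at E13.5 and fell by 1.26 (−1.42 to −1.10) at E14.5. *Bmp4*, another ligand, fell at E12.5 with a log2 ratio of −2.28, and *Bmp5* with −1.27. The receptor gene *Bmpr1b* at −1.49, the signal transducer *Smad9* at −1.07 and the antagonist *Grem1* at −2.35 were the others that fell. Only the E11.5 pool held the mesonephros, and its part in these falls was not tested. The receptors *Bmpr1a* and *Bmpr2* stayed between −0.17 and 0.11. By total counts 12 of the 15 genes were past 2-fold lower at E14.5 against E13.5, as were 11417 of the 20226 genes tested.

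Retinoic acid, made in the mesonephros and the gonad, is the other known input to the *Msx* genes and to meiosis. Of the 9 genes of its pathway that met the minimum, 2 rose and 5 fell past 2-fold between E11.5 and E12.5. Of all genes tested, 8.07% were higher and 8.22% lower in that step. None of the 9 was past 2-fold at the 2 later steps on the TMM scale, where 4.04% and 7.39% of all genes were. By total counts 4 were lower at E14.5 against E13.5, as were 11417 of the 20226 genes tested. The enzyme gene *Aldh1a2* had a log2 ratio of −1.70 at E12.5, the receptor *Rarb* −3.14 and *Stra6*, a retinol transporter, −1.94. *Aldh1a1*, another synthetic enzyme, rose by 3.90, and *Cyp26b1*, which degrades retinoic acid, by 1.28. The mesonephros was part of the E11.5 pool only, and its part in these values was not tested.

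Meiotic genes were called higher in each of the 3 steps. Of 15 genes, 7, then 9 and then 7 were past 2-fold higher in the 3 steps and none lower, against 8.07%, 2.56% and 5.86% of all genes. The first step also removed the mesonephros, whose part in the rises at E12.5 was not tested. *Stra8*, the gatekeeper of meiosis and a gene downstream of the Msx factors, had 0, 3, 430 and 272 counts. Its log2 ratio at E13.5 was 6.77 (5.27–9.11). *Msx2* rose in the same step, while *Msx1* was at 0.01, and a link of either to *Stra8* was not tested. *Gm1564* (*Meioc*), needed for meiotic prophase, was at 3.86 in that step and *Rec8*, a meiotic cohesin, at 0.90. *Sycp3*, of the synaptonemal complex, rose at every step, by 3.56, 1.27 and 1.78. The median log2 ratio of the list was 1.69 at E12.5, or 1.03 with genes at 0 counts put at the floor, 1.27 at E13.5 and 0.65 at E14.5. *Sohlh2* and *Msx2* had their highest TMM-scaled levels at E13.5, while *Mei1*, *Sycp2* and *Prdm9* of this list still rose at E14.5. By total counts 1 gene of the meiotic list was higher and 3 were lower at E14.5 against E13.5, so the direction of that step depends on the scaling. Of the 20226 genes tested, 316 were higher and 11417 lower on that scale.

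**Figure D4:**
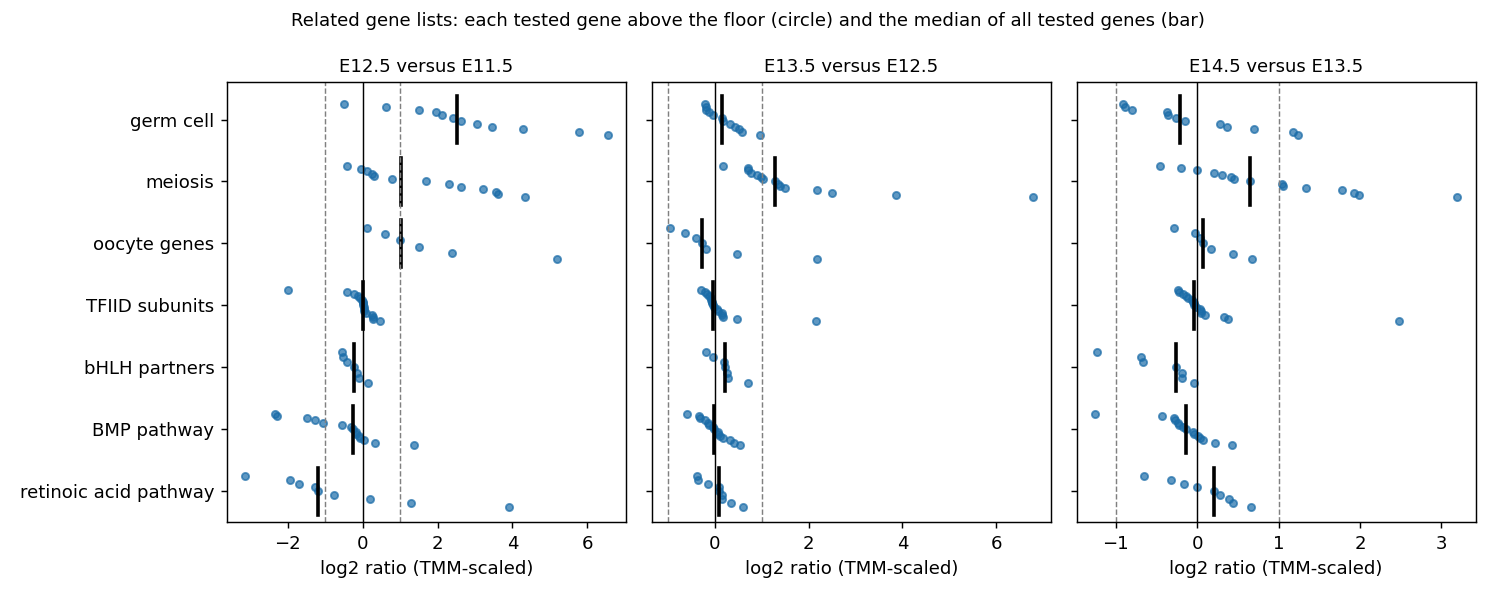
Log2 ratio of each tested gene of 7 related lists in the 3 steps between neighbouring libraries (circles), with the median of all tested genes of the list, genes at 0 counts put at the floor (bar), and dashed lines at 2-fold. Genes at or under the floor in both libraries are counted in the bar and not drawn. Meiotic genes lie mostly to the right of 0 in each step, and TFIID genes lie near 0 except *Taf7l*.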

How the data were processed

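Total RNA of pooled XX and XY gonads was sequenced with the SEQuoia Complete Stranded kit after removal of rRNA. The authors ran the kit maker's toolkit, in which STAR aligned the reads to mm10, UMI-tools collapsed copies of a molecule and featureCounts gave the deposited counts per gene. RPKM and TPM were computed by the authors from these counts and exon lengths, and the deposited values matched that calculation for every feature with a tolerance of 1e-06. Tool versions and the annotation release are not given in the sources used here.

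Calculations used edgeR 4.0.16 and DESeq2 1.42.0 in R 4.3.3, Python 3.11.15, scipy 1.17.1, pandas 2.3.3, numpy 2.4.6 and, for the plots, matplotlib 3.10.9. TMM factors came from genes with at least 10 counts in at least 1 of the 4 libraries, and were 1.095, 1.22, 1.25 and 0.598 from E11.5 to E14.5. Log2 ratios used a prior count of 0.125. Since 1 library per time point gives no estimate of the spread, no p-value is printed. The study used edgeR with no dispersion stated, and its exact test at preset biological coefficients of variation (BCV) of 0.1, 0.2 and 0.4 was an alternative, with a false discovery rate of 0.05. Other alternatives changed the scaling, the filter, the prior count and the fold, and list counts by total counts were added after seeing the data. On simulated data for E13.5 versus E12.5 the calls were tested before use. All simulated libraries shared 1 mean composition and a BCV of 0.1, and no gene near the floor was changed. The simulation therefore does not cover the ribosomal RNA of the E14.5 library or calls near the floor. Named genes are the 8 members, 17 fixed gene lists, features within 10 kb of a member, and the 3 genes closest in pattern to a member with at least 100 counts. The members and lists were chosen with earlier results of these data known. GENCODE M21 gave gene types and RefSeq the promoters, of which 7 of the 8 were used here.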

Additional observations from a re-analysis of the deposited data

How the results depend on the processing

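No paired analysis was possible because each time point has 1 library, and for the same reason no library could be left out within a group. All 28 member ratios stayed within their counting intervals with DESeq2 size factors, TMM from protein-coding genes, TMM on the 2 libraries alone and a prior count of 2. Outside the interval were 8 ratios by total counts and 13 by the deposited TPM. The sign of *Taf4b* at E14.5 turned against E13.5 by total counts (−0.98) and by TPM (−1.54), and against E12.5 (−0.80 and −1.25). *Msx2* turned against E12.5 (−0.64 and −1.09), and *Sohlh1* against E13.5 (−0.40 and −0.95).

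Members past 2-fold at E14.5 against E13.5 went from 1 to 4 by total counts and 5 by TPM, and against E12.5 from 2 to 4 by TPM. By total counts they stayed at 2 there, but both were lower. *Figla* and *Sohlh1* were called on neither scale there. With at least 10 counts in both libraries 0 members were called in either comparison. At 4-fold the members called were 1, 0, 1 and 1 for the steps to E12.5, to E13.5 and to E14.5 and for E14.5 versus E12.5, an order kept below. The edgeR exact test called 2, 1, 1 and 0 at a BCV of 0.1, 2, 0, 1 and 0 at 0.2, and 1, 0, 0 and 0 at 0.4.

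Over all genes, the 3295, 818, 1495 and 2142 calls became 1429, 222, 542 and 784 at 4-fold. They became 2806, 359, 957 and 1515 at a BCV of 0.1, 1831, 53, 497 and 820 at 0.2, and 283, 1, 31 and 71 at 0.4. With at least 10 counts in both libraries, E13.5 versus E12.5 had 487. Total counts gave 11733 at E14.5 versus E13.5, with 316 higher and 11417 lower where TMM gave 1185 and 310, and 10644 against E12.5, with 440 and 10204 where TMM gave 1630 and 512. By TPM the counts were 17246 (162 and 17084) and 15780 (261 and 15519). TPM also moved the split at E12.5 from 1632 higher and 1663 lower to 2313 and 1174, and at E13.5 from 517 and 301 to 716 and 224. The E14.5 library is the one with 40.7% ribosomal RNA, and its part in these shifts was not tested. Counts near the floor limit *Figla*, *Sohlh1*, *Lhx8* and *Nobox*.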

Other observations

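Genes of male germ cells, which share the pools with the oocyte lineage, were called higher in each of the 3 steps, 1 of them (*Nanos2*) at E13.5. *Nanos2*, an RNA-binding protein of fetal male germ cells, had 0, 0, 12 and 75 counts, and its log2 ratio at E14.5 against E13.5 was 3.70 (2.83–4.73). *Piwil4*, a piRNA-binding protein, had 3, 21, 41 and 129 counts, *Tdrd9* 31, 31, 69 and 158, and *Dnmt3l*, a cofactor of DNA methylation, 0, 0, 2 and 29. Of the 7 genes of this list, 4 were past 2-fold higher at E14.5 against E13.5, where 5.86% of all genes were. *Dnmt3l*, among the 4, met the count minimum through the E14.5 library alone, so it could only be called higher there. By total counts 4 were higher and 2 lower, where 316 and 11417 of the 20226 genes tested were. At E12.5 against E11.5, 4 genes of the list were also past 2-fold higher, where 8.07% of all genes were. The loss of the mesonephros falls in that step, and its part was not tested. *Nodal* and *Lefty1*, which encode a ligand and an inhibitor of one pathway, had log2 ratios of 3.12 and 4.14 at E12.5 against E11.5, both called, and −0.73 and −0.65 at E14.5 against E13.5, neither called.

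Markers of somatic cells were present in each pool. *Foxl2*, a factor of pregranulosa cells, had 191, 493, 1092 and 826 counts, and 5 Leydig cell genes summed to 12.8, 164, 679 and 1120 TMM-scaled CPM. The sums were 97.3, 506, 414 and 444 for 5 Sertoli cell genes, 322, 318, 244 and 225 for 4 endothelial genes, 30.04, 14.6, 15.8 and 20.1 for 3 macrophage genes, and 19.1, 23.3, 44.5 and 44.1 for 4 erythroid genes. None of 15 housekeeping genes was past 2-fold in any comparison on the TMM scale. By total counts 12 were lower at E14.5 against E13.5, as were 11417 of the 20226 genes tested.

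The genes closest to a member in pattern were compared by the root mean square difference of centred log2 levels over the 4 libraries. Counting error was not carried into these differences. For *Taf4b* the closest were *Ky*, *Ms4a4d* and *Zc3hav1*, with differences of 0.02 to 0.04 (log2). *Ky* had 16, 49, 70 and 35 counts and *Ms4a4d* 10, 29, 42 and 20, so their closeness is loosely measured. *Zc3hav1*, an antiviral RNA-binding protein, had 778, 2437, 3330 and 1689 counts. For *Sohlh2* the closest were *Dnaic1*, *Mybphl* and *Syt15*, at 0.18 to 0.21, none of which passed 114 counts in a library. *Msx1* was closest to *LOC102632116*, *Rnf182* and *LOC102638183*, at 0.05 to 0.06, and *Rnf182* had 516, 612, 740 and 193 counts. *Msx2* was closest to *Gm13315*, *Qpct* and *Slc46a3*, at 0.11 to 0.13. Among the 16372 genes compared, no member was among the 3 closest to another.

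Features within 10 kb of a member had few counts, apart from *Add2* beside *Figla*, with 403, 169, 281 and 164. *Ccdc169*, upstream of *Sohlh2* on the same strand, had 11, 10, 12 and 4 counts and log2 ratios of −0.01, −0.07 and −0.51. *AI606473*, which starts 260 bases from *Lhx8* on the other strand, had counts at E14.5 only, 2 of them. *LOC102636789*, which spans *Msx2* on the other strand without a shared exonic base, had 6, 7, 12 and 1.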
